A study of Mus musculus with 6 samples.

Results

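The genes described here are receptors, ligands and target genes of the Notch pathway, measured by RNA sequencing in NMuMG cells. They are the receptors Notch1, Notch2, Notch3 and Notch4, the ligands Jag1, Jag2 and Dll1, and the targets Hes1, Hey1 and Nrarp. They were chosen by gene symbol when earlier results of these data were already known, and all 10 of these 10 genes were among the 18512 entries of the count table. NMuMG is an established epithelial line from normal mouse mammary gland, and 1 line was studied. The serum-starved cells received the solvent DMSO, 5 ng/ml TGF-β, or 5 ng/ml TGF-β together with 50 uM 2APB. 2APB is a small molecule that blocks store-operated calcium entry, the inflow of calcium that follows emptying of the stores inside the cell, and it also acts on other calcium channels. Each of the 3 groups had 2 sequenced replicates. No group received 2APB without TGF-β, so an effect of 2APB by itself cannot be read from these libraries. Whether the cells given TGF-β alone also received DMSO was not stated. The treatment is described in one place as 24 h for all groups, and in another 2APB is placed 24 h ahead of TGF-β, and the data did not settle which was done. The methods call the sequenced pairs biological replicates, and a legend has the cells treated in sets of 3 of which 2 were sequenced. Whether these were cultures started apart is not spelled out in the sources used here, so p-values here measure the spread between these libraries and no more.

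Notch receptors sit in the cell membrane and are activated by ligands of the Jagged and Delta-like families on a neighboring cell. Ligand binding exposes the receptor to cleavage by ADAM proteases and then by gamma-secretase, and the freed intracellular domain enters the nucleus, where it joins the DNA-binding protein RBPJ and a Mastermind coactivator to switch on targets such as genes of the HES and HEY families. In the mammary gland the pathway is known for its part in the choice between luminal and basal epithelial cell fates.

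The libraries held 71840570 to 79473182 gene counts each. The unit used below is the normalized count, which is the count of a gene after scaling by edgeR's TMM factors to a library of average size. Every deposited count is even, and whether counts were doubled before deposit is open. A printed count may therefore be 2 times the number of reads. The average number of reads per sample that the methods state is below the gene counts of every library. Levels of different genes are compared only as normalized counts per kb of exon. Differences between groups are log2 fold changes with their standard error (SE), from 1 edgeR quasi-likelihood model of all 6 libraries. A gene is said to rise, fall or be called where the false discovery rate (FDR) of that test, adjusted over all 13353 genes that averaged 20 or more normalized counts, was 0.05 or less. Replicates of a group varied with a biological coefficient of variation of 17.4% across genes. The replicates were not equally alike. The SD of the log2 difference between replicates over all tested genes was 0.33 in the DMSO group, 0.57 in the TGF-β group and 0.78 in the TGF-β+2APB group. By the share of genes whose replicates differed beyond sampling noise the order was another, with 18.3%, 59.8% and 35.3% in these groups. The TGF-β replicates thus differed in the most genes. These shares were computed on halved counts, as if counts had been doubled before deposit. For the same genes they would be larger with each deposited count taken as 1 read. Replicate 2 of TGF-β+2APB stood apart in its blood cell markers. The normalized count of Csf1r, a receptor of macrophages, was 969 in that library and 168 in replicate 1 of the same group. Ptprc, which encodes the leukocyte antigen CD45, had 742 and 35.6 normalized counts in the same order.

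All 10 genes had enough counts for the test, although Notch3 and Nrarp had means below 20 normalized counts in at least 1 group and so passed the minimum through the groups where they were higher. With TGF-β against DMSO, 5 of the 10 genes were called, against 41.5% of all tested genes. Of these, 4 rose and 1 fell, where 21.8% of all tested genes rose and 19.7% fell. DESeq2 called 8, 6 higher and 2 lower, and 6292 of all genes where edgeR called 5548. Relative to DMSO, TGF-β+2APB changed 9 genes, of which 7 rose and 2 fell, where 52.8% of all tested genes were called, 25.6% higher and 27.2% lower. Comparing both treatments directly gave 4 called genes, of which 3 were higher and 1 was lower with TGF-β+2APB, where 17.5% of all tested genes were called, 6.58% higher and 10.9% lower. The median log2 fold change of the 10 genes in these comparisons was 0.50, 1.17 and 0.12, while the medians of all tested genes were -0.01, -0.0033 and -0.0037. Without Notch3 and Nrarp, 5 of 8 genes were called with TGF-β against DMSO, 7 of 8 with TGF-β+2APB against DMSO and 3 of 8 in the direct comparison, and the medians of these 8 genes in that order were 0.36, 0.43 and 0.097. The direct count fell from 4 to 1 gene, Dll1, without DMSO replicate 1, without DMSO replicate 2 or without TGF-β+2APB replicate 1, and was 4 with any of the other libraries left out. Over all genes the direct count was 858, 834 and 986 in the 3 fits that left 1 gene, in place of 2334, so it fell there as well. In the fits that kept 4 genes, the count of all genes rose without either TGF-β replicate and fell without TGF-β+2APB replicate 2. With the replicate number as a block and with only the 4 libraries compared the direct count of the 10 was 2, and that of all genes 1342 and 860. Without TGF-β+2APB replicate 1 the count against DMSO was 6 in place of 9, and that of all genes 5078 in place of 7044. Each pair of these comparisons shares the libraries of 1 group, so their values are given side by side and were not correlated.

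**Figure D1:**
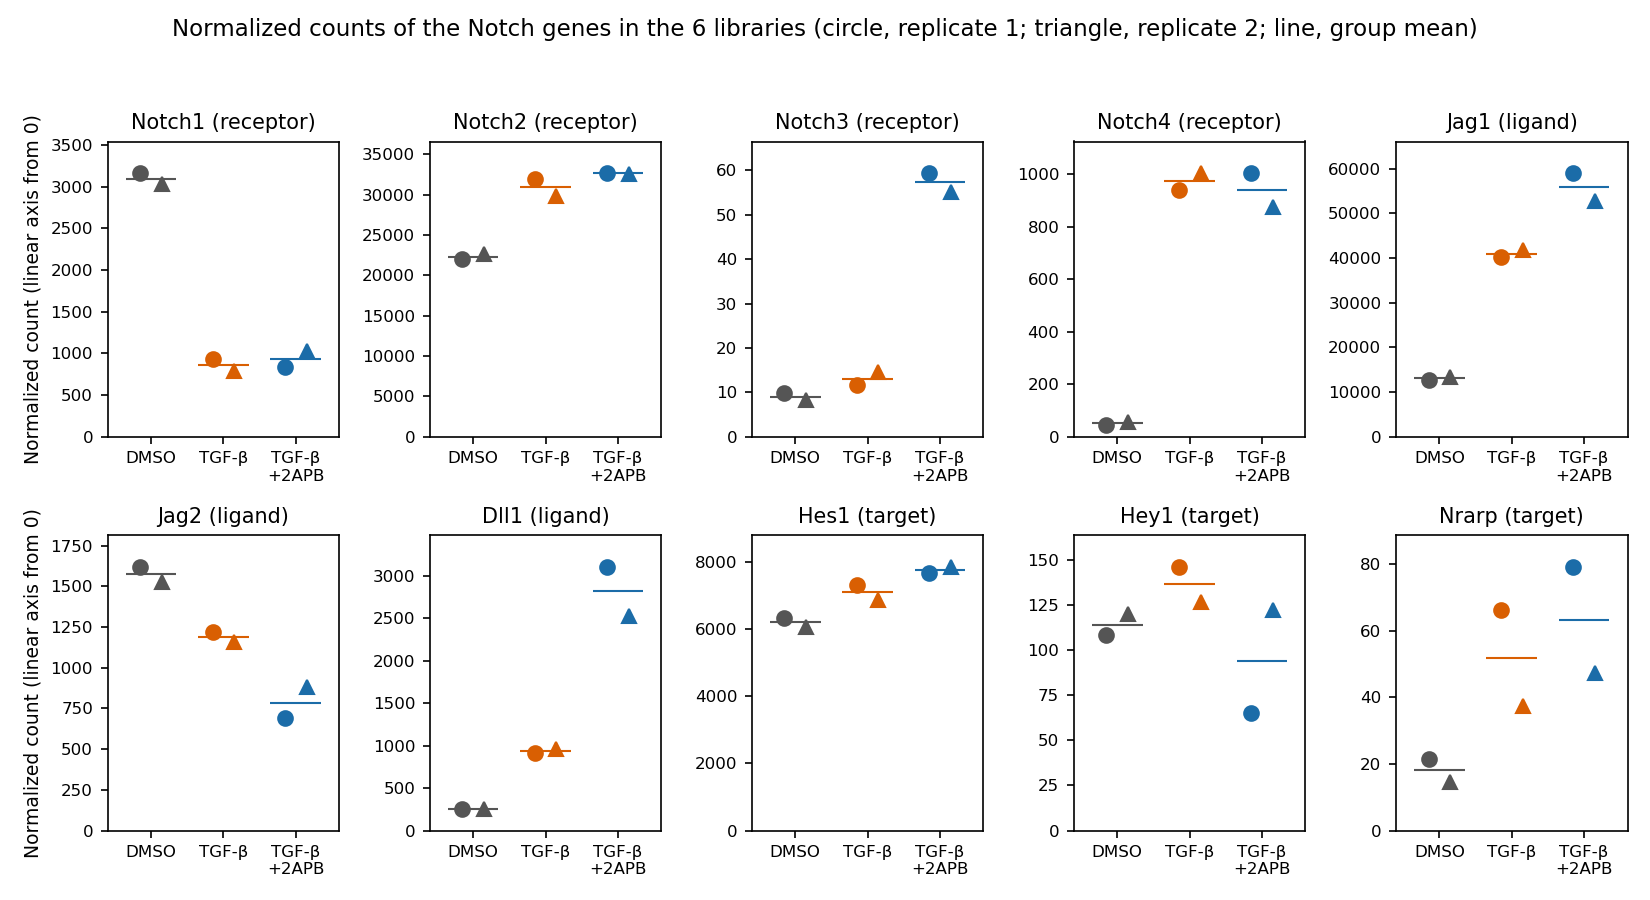
Normalized counts of the 10 genes in each library, on linear axes that start at 0 and differ between panels. Circles are replicate 1, triangles are replicate 2 and lines are group means, and the panels show for example that Notch4 lies at 45.2 and 57.8 with DMSO and between 876 and 1004 in the other libraries.

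Notch2 was the receptor with the most RNA in every group. On the per kb scale its level was 2072 ± 33.5 (SD, n = 2) with DMSO, 2866 ± 133 (SD, n = 2) under TGF-β and 3028 ± 3.37 (SD, n = 2) under TGF-β+2APB. Its normalized counts were 22080.5 and 22592 with DMSO, 31915 and 29882.5 under TGF-β, then 32675 and 32623 under TGF-β+2APB. Both DMSO libraries lay below the other libraries, and the TGF-β+2APB libraries lay above the higher TGF-β library by less than the TGF-β replicates differed from each other. Notch2 rose under TGF-β, by 0.47 on the log2 scale (edgeR FDR 0.00331, SE 0.067, 1.38-fold). This call was lost without DMSO replicate 1, at an edgeR FDR of 0.0510, the highest of a range that began at 6.89e-12 over the alternatives. Against DMSO the log2 fold change with TGF-β+2APB was 0.55 (edgeR FDR 0.00123, SE 0.067). The direct comparison gave 0.08 for Notch2 (edgeR FDR 0.452, SE 0.066) and was not called. The gene lies on the plus strand at chr3:98013527-98150361 of the mouse genome GRCm38, the build of all positions given here.

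Notch1, the receptor most studied in development and in T cell leukemia, lies on the minus strand at chr2:26457903-26516663. It was counted, after normalization, 3162.5 and 3029 times with DMSO, 937 and 789 times under TGF-β, then 839 and 1028 times under TGF-β+2APB. Both DMSO libraries were above all other libraries, and the TGF-β and TGF-β+2APB libraries overlapped. Notch1 was the only receptor of the 4 to fall, by 1.84 on the log2 scale with TGF-β (edgeR FDR 0.000364, SE 0.14) and by 1.73 with TGF-β+2APB (edgeR FDR 0.00027, SE 0.14), both relative to DMSO. These falls were called in all 13 of the 13 alternatives tried. In bulk samples like these, fewer cells that carry a transcript and less of it per cell cannot be told apart. Between the treatments the difference was a log2 fold change of 0.11 (edgeR FDR 0.602, SE 0.14), which did not pass.

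Notch4, best known from endothelium, lies on the plus strand at chr17:34564268-34588503. In normalized counts the libraries had 45.2 and 57.8 with DMSO, 941 and 1004 under TGF-β, then 1004 and 876 under TGF-β+2APB. The DMSO libraries were far below the rest, and the libraries of the other groups overlapped. With TGF-β the level was 18.9-fold that of DMSO, a log2 fold change of 4.24 (edgeR FDR 6.43e-05, SE 0.17). With TGF-β+2APB it was 18.2-fold that of DMSO, or 4.19 (edgeR FDR 3.86e-05, SE 0.17). Both calls were kept in 13 of 13 alternatives. Compared directly, the treatments differed by a log2 fold change of -0.05 (edgeR FDR 0.836, SE 0.14). Of 7 endothelial markers listed, 6 were in the count table, and Kdr, Tek and Tie1, receptors that define endothelium, had at most 2 counts in any library. The summed normalized counts of the 6 genes were 35.4 and 18.6 with DMSO, 62.3 and 58.1 under TGF-β, then 273 and 430.1 under TGF-β+2APB. Vwf, which encodes von Willebrand factor, had 33.1 and 29.1 normalized counts under TGF-β but 245.5 and 379 under TGF-β+2APB, while the Notch4 libraries of these groups overlapped. Cdh5 had 0 and 2.07 with DMSO, 7.79 and 14.5 under TGF-β, then 17.8 and 21.7 under TGF-β+2APB, so that like Notch4 it was lowest in both DMSO libraries. Pecam1 had between 9.83 and 25.6 normalized counts, and its groups overlapped. The part of endothelial transcripts in the level of Notch4 was not tested.

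Notch3, a receptor of vascular smooth muscle cells and pericytes that is also found in luminal mammary progenitors, was near the limit of detection in the first 2 groups. The deposited counts were 10 and 8 with DMSO, 12 and 14 under TGF-β, then 60 and 56 under TGF-β+2APB. The TGF-β+2APB libraries were above all others and the remaining groups did not overlap but differed by few counts. TGF-β against DMSO gave a log2 fold change of 0.53 (edgeR FDR 0.33, SE 0.37) that was not called. Notch3 was 4.35-fold higher with TGF-β+2APB than under TGF-β alone, a log2 fold change of 2.12 (edgeR FDR 0.015, SE 0.35). The FDR over the alternatives ran from 0.00202 to 0.0546 for this rise, and the call was lost without DMSO replicate 1 (edgeR FDR 0.0537) and without DMSO replicate 2 (edgeR FDR 0.0546). With halved counts it was kept. Without TGF-β+2APB replicate 1 Notch3 fell below the count minimum and had no test. Against DMSO the rise with TGF-β+2APB was 6.26-fold, or 2.65 on the log2 scale (edgeR FDR 0.00185, SE 0.36). The gene lies on the minus strand at chr17:32120820-32166852. Among 6 markers of fibroblasts or mesenchyme, 5 were in the table, with summed normalized counts of 100.2 and 101 with DMSO, 713 and 627 under TGF-β, then 954 and 823 under TGF-β+2APB. Pdgfrb, a growth factor receptor of pericytes and fibroblasts, had 9.83 and 12.4 normalized counts with DMSO and between 523 and 663 in the other libraries. Per kb it was the most abundant of these markers under TGF-β and TGF-β+2APB, but not with DMSO. Pdgfra, its relative, had 76.7 and 76.4 with DMSO, 85.7 and 93.4 under TGF-β, then 283 and 249 under TGF-β+2APB, so that its TGF-β+2APB libraries were above all others, as for Notch3. Col3a1, a collagen gene, had 9.83 and 12.4, then 3.90 and 6.23, then 5.94 and 11.8 in the same groups. Dcn and Thy1, which define fibroblasts, had at most 4 and 6 counts in any library. The part of these markers in the rise of Notch3 was not tested.

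The mix of receptor transcripts, as the share of each gene in the summed per kb level of the 4 receptors, was led by Notch2 throughout. Its share was 90.2% ± 0.366 (SD, n = 2) with DMSO, 94.0% ± 0.215 (SD, n = 2) under TGF-β and 94.1% ± 0.0583 (SD, n = 2) under TGF-β+2APB. Notch1 held 9.47% ± 0.404 (SD, n = 2) of the DMSO total, and 1.99% ± 0.154 (SD, n = 2) and 2.04% ± 0.295 (SD, n = 2) of the totals with TGF-β and TGF-β+2APB. Notch4 stood below Notch1 with DMSO, at 0.278% ± 0.0449 (SD, n = 2), and above it in the other groups, at 3.97% ± 0.358 (SD, n = 2) and 3.62% ± 0.342 (SD, n = 2). Notch3 stayed lowest in each group, with at most 0.22% ± 0.0109 (SD, n = 2) in the TGF-β+2APB libraries. These shares describe RNA, and receptor protein or cleavage was not measured.

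Jag1 encodes the ligand Jagged1 and lies on the minus strand at chr2:137081456-137116644. Its normalized counts were 12809 and 13419 with DMSO, 40184 and 41721 under TGF-β, then 58976.5 and 52696.5 under TGF-β+2APB. The 3 groups did not overlap and stood in this order from low to high. Jag1 rose under TGF-β, by 1.64 on the log2 scale (edgeR FDR 0.00011, SE 0.082, 3.12-fold). With TGF-β+2APB it was 4.26-fold above DMSO, a log2 fold change of 2.09 (edgeR FDR 3.8e-05, SE 0.083), and both calls against DMSO held in 13 of 13 alternatives. The further rise of Jag1 in the direct comparison was 1.36-fold, or 0.45 on the log2 scale (edgeR FDR 0.0187, SE 0.080). This call was not kept in every setting, and 8 of 13 alternatives made it. The edgeR FDR was 0.0700 without DMSO replicate 1, 0.0703 without DMSO replicate 2 and 0.165 without TGF-β+2APB replicate 1, in a range of 1.56e-05 to 0.165 over the alternatives. It was also lost when only the 4 libraries compared were fitted (edgeR FDR 0.0667) and with the replicate number as a block (edgeR FDR 0.0504). In these fits the log2 fold change stayed at 0.45, except at 0.33 without TGF-β+2APB replicate 1.

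Dll1, a ligand of the Delta-like family, differed most between TGF-β+2APB and TGF-β among the ligands. The libraries had normalized counts of 249.6 and 248 with DMSO, 912 and 961 under TGF-β, then 3104 and 2529 under TGF-β+2APB. As with Jag1, the groups did not overlap and rose in the same order. With TGF-β the level was 3.76-fold that of DMSO, a log2 fold change of 1.91 (edgeR FDR 0.000244, SE 0.13). It rose again by 3.01-fold when TGF-β+2APB was compared with TGF-β, or 1.59 (edgeR FDR 0.00311, SE 0.12), and the level with TGF-β+2APB was 11.3-fold that of DMSO, or 3.50 (edgeR FDR 3.06e-05, SE 0.13). Each of these 3 calls was kept in 13 of 13 alternatives, and the direct rise was 1.73 without TGF-β+2APB replicate 2, the library with the high blood cell markers. Dll1 lies on the minus strand at chr17:15367354-15376872, and an antisense gene, A930024N18Rik, overlaps 20.5% of its exon length.

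Jag2 encodes the other Jagged ligand, lies on the minus strand at chr12:112907819-112929776 and was lower in the treated cells. Its normalized counts were 1619.6 and 1527 with DMSO, 1217.5 and 1158 under TGF-β, then 689 and 884 under TGF-β+2APB. No library of one group overlapped another group, and the order was the opposite of that of Jag1 and Dll1. With TGF-β against DMSO the log2 fold change was -0.41 (edgeR FDR 0.0581, SE 0.13), which missed the threshold in edgeR, while DESeq2 gave an FDR of 0.0283 and edgeR with library size scaling 0.0496, in a range of 0.0283 to 0.252 over the alternatives. Jag2 fell by 0.59 on the log2 scale in the direct comparison (edgeR FDR 0.0368, SE 0.14). Over the alternatives this FDR ran from 0.00281 to 0.144. The call was lost without DMSO replicate 1 (edgeR FDR 0.0990), without DMSO replicate 2 (edgeR FDR 0.0999), without TGF-β+2APB replicate 1 (edgeR FDR 0.144), without a count minimum (edgeR FDR 0.0510), with the replicate number as a block (edgeR FDR 0.0775) and with only the 4 libraries compared (edgeR FDR 0.0983). The log2 fold change was -0.46 without TGF-β+2APB replicate 1 and between -0.60 and -0.59 in the other fits that lost the call. Relative to DMSO the change with TGF-β+2APB was a log2 fold change of -1.0 (edgeR FDR 0.0019, SE 0.14).

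Dll4, a ligand of endothelial cells that belongs to the wider list given further on, was added to the ligand mix. Normalized counts of this gene were 11.8 and 4.13 with DMSO, 286 and 228 under TGF-β, then 392 and 327.5 under TGF-β+2APB. Both DMSO libraries were below all others. In the summed per kb level of Jag1, Jag2, Dll1 and Dll4, the share of Jag1 was 88.7% ± 0.718 (SD, n = 2) with DMSO, 93.9% ± 0.259 (SD, n = 2) under TGF-β and 91.6% ± 0.166 (SD, n = 2) under TGF-β+2APB. Jag2 went from the next in rank, at 8.91% ± 0.592 (SD, n = 2) with DMSO, to 2.28% ± 0.135 (SD, n = 2) under TGF-β and 1.09% ± 0.278 (SD, n = 2) under TGF-β+2APB. Dll1 held 2.32% ± 0.0688 (SD, n = 2), 2.96% ± 0.0396 (SD, n = 2) and 6.37% ± 0.404 (SD, n = 2) across the groups in that order. Dll4 held 0.0822% ± 0.0575 (SD, n = 2) with DMSO and 0.894% ± 0.164 (SD, n = 2) with TGF-β, near its 0.892% ± 0.0407 (SD, n = 2) with TGF-β+2APB. The summed ligand level was 2537 ± 62.9 (SD, n = 2) normalized counts per kb with DMSO, 7487 ± 178 (SD, n = 2) under TGF-β and 10456 ± 850.5 (SD, n = 2) under TGF-β+2APB. The receptor sum was 2297 ± 27.9 (SD, n = 2) with DMSO, then 3049 ± 135 (SD, n = 2) under TGF-β and 3217 ± 5.58 (SD, n = 2) under TGF-β+2APB.

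Hes1, a transcriptional repressor of the HES family and the most abundant of the 3 targets per kb, had 6345 and 6072 normalized counts with DMSO, 7320.3 and 6883 under TGF-β, then 7664 and 7858 under TGF-β+2APB. The groups did not overlap, but the steps between them were small. TGF-β against DMSO gave a log2 fold change of 0.19 (edgeR FDR 0.0838, SE 0.073), not called in edgeR's main setting. That value was called by DESeq2 (FDR 0.0155) and without TGF-β replicate 2 (edgeR FDR 0.0209), in a range of 0.0155 to 0.388 over the alternatives. Hes1 was 1.25-fold higher with TGF-β+2APB than with DMSO, a log2 fold change of 0.32 (edgeR FDR 0.0133, SE 0.073). The call was lost without DMSO replicate 1 (edgeR FDR 0.0817), DMSO replicate 2 (edgeR FDR 0.128), TGF-β+2APB replicate 1 (edgeR FDR 0.0889) or TGF-β+2APB replicate 2 (edgeR FDR 0.0915), in a range of 5.29e-06 to 0.128. Between the treatments the log2 fold change was 0.13 (edgeR FDR 0.281, SE 0.073). Hes1 lies on the plus strand at chr16:30064384-30067796.

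Nrarp encodes a small ankyrin repeat protein that binds the Notch intracellular domain and limits its activity, and it was the target with the largest fold change but also with few counts. The deposited counts were 22 and 14 with DMSO, 68 and 36 under TGF-β, then 80 and 48 under TGF-β+2APB. The DMSO libraries were below all others, and the TGF-β and TGF-β+2APB libraries overlapped. TGF-β against DMSO gave a log2 fold change of 1.51 (edgeR FDR 0.0505, SE 0.48), just short of the threshold, and 7 of 13 alternatives called it, in a range of 0.0268 to 0.238. Among these were the fits without TGF-β replicate 2 (edgeR FDR 0.0268), without TGF-β+2APB replicate 1 (edgeR FDR 0.0489) and without TGF-β+2APB replicate 2 (edgeR FDR 0.0435). With TGF-β+2APB Nrarp rose 3.49-fold over DMSO, or 1.80 on the log2 scale (edgeR FDR 0.0232, SE 0.48, in a range of 0.00921 to 0.136). That call was lost without DMSO replicate 1 (edgeR FDR 0.0724), DMSO replicate 2 (edgeR FDR 0.136) or TGF-β+2APB replicate 1 (edgeR FDR 0.0980). The direct comparison gave 0.29 for Nrarp (edgeR FDR 0.697, SE 0.45). The gene lies on the plus strand at chr2:25180758-25183339, and an antisense gene, Gm38287, overlaps 79.4% of its exon length. Genes on the opposite strand also overlap Dll1, as given above, Notch1 (0610009E02Rik with 7.50% and Gm13568 with 2.91% of its exon length) and Notch3 (Gm17276 with 6.03%), and Gm42820 on the same strand overlaps 5.02% of Notch2. These overlapping genes were not in the count table and the strand setting of the counting was not given, so their reads cannot be told apart from those of the 5 genes.

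Hey1, a repressor of the HEY family, lies on the minus strand at chr3:8663359-8667256 and was the only one of the 10 genes without a call in any comparison. Its normalized counts were 108 and 119.8 with DMSO, 146 and 127 under TGF-β, then 65.3 and 122 under TGF-β+2APB. The TGF-β+2APB replicates differed from each other by more than the group means did, and replicate 2 lay within the range of the other groups. The log2 fold changes were 0.26 with TGF-β against DMSO (edgeR FDR 0.585, SE 0.35), -0.54 in the direct comparison (edgeR FDR 0.334, SE 0.35) and -0.28 with TGF-β+2APB against DMSO (edgeR FDR 0.535, SE 0.35). The direct value was -0.19 without TGF-β+2APB replicate 1 and -1.06 without TGF-β+2APB replicate 2 (edgeR FDR 0.0853), and the last of these values was 0.10 and -0.78 without the same libraries. That with TGF-β against DMSO ran from 0.16 to 0.36 over the alternatives, the lowest without TGF-β replicate 1.

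By role, the receptors had 3 of 4 genes called with TGF-β against DMSO, 4 with TGF-β+2APB against DMSO and 1 in the direct comparison, where 41.5%, 52.8% and 17.5% of all tested genes were called. The direct call is Notch3, which passed the count minimum only through the TGF-β+2APB group. Without it edgeR called 0 of 3 receptors there, with 0 at an unadjusted p under 0.05 and 0 by DESeq2. The ligands had 2 of 3 called with TGF-β, and all 3 in each comparison of TGF-β+2APB, beside the same shares of all genes. Only 1 ligand kept its direct call with the replicate number as a block or with only the 4 libraries compared. Of the 3 targets, 0 were called with TGF-β by edgeR and 2, Hes1 and Nrarp, with TGF-β+2APB against DMSO, or 1 of 2 without Nrarp, which had a group below the minimum. At an unadjusted p under 0.05, 2 of the 3 targets, Hes1 and Nrarp, passed with TGF-β, and DESeq2 called the same genes. In the direct comparison 0 targets were called by edgeR, where 0 had an unadjusted p under 0.05 and DESeq2 called 0. Without DMSO replicate 1, or without DMSO replicate 2, the direct comparison called 0 receptors and 1 ligand, and 0 targets were called with TGF-β+2APB against DMSO. Without TGF-β+2APB replicate 1 there were 0 receptors and 1 ligand in the direct comparison and 0 targets against DMSO, and without TGF-β+2APB replicate 2 there was 1 target against DMSO. The per kb level of Hes1 was 3048 ± 94.6 (SD, n = 2) with DMSO and 3810.1 ± 67.5 (SD, n = 2) with TGF-β+2APB. Nrarp stood at 6.99 ± 1.96 (SD, n = 2) and 24.5 ± 8.72 (SD, n = 2) on the same scale, and Hey1 at 34.9 ± 2.54 (SD, n = 2) and 28.7 ± 12.3 (SD, n = 2).

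**Figure D2:**
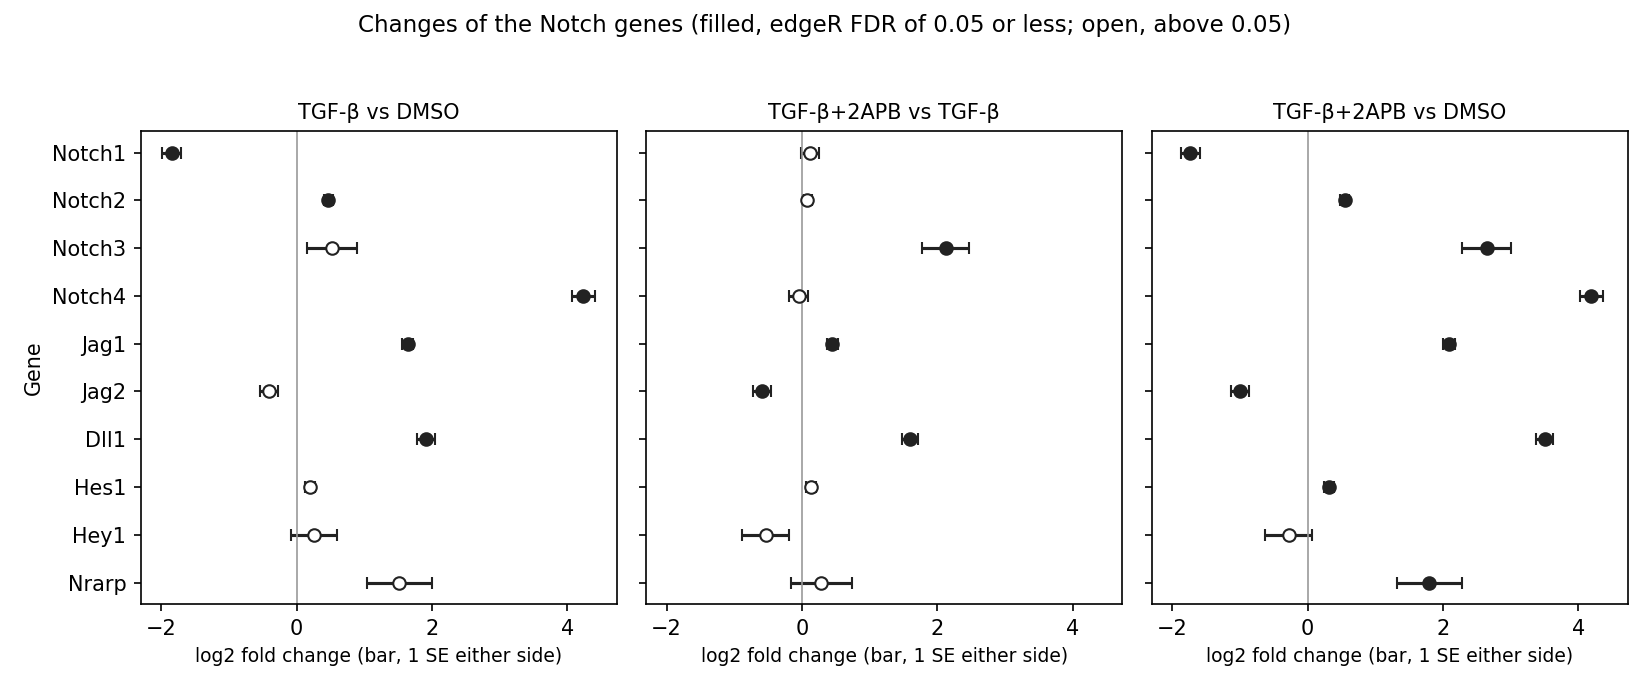
Log2 fold changes of the 10 genes in the 3 comparisons, with bars of 1 SE and filled points where the edgeR FDR was 0.05 or less. Against DMSO the points run from -1.84 for Notch1 to 4.24 for Notch4 with TGF-β, and Dll1 and Notch3 lie farthest to the right in the direct comparison, at 1.59 and 2.12.

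The values above were also computed without TGF-β+2APB replicate 2, the library with the high blood cell markers. Against DMSO 8 of the 10 genes were then called in place of 9, the loss being Hes1, and the direct count was again 4, while the calls over all genes went from 7044 to 5291 against DMSO and from 2334 to 1260 in the direct comparison. Without that library the direct log2 fold changes were 2.17 for Notch3, 0.52 for Jag1 and -0.79 for Jag2. Notch4 stood 4.30 above DMSO on the log2 scale in that fit. Of 6 blood cell markers listed, 5 were in the table, and their summed normalized counts were 635 and 486 with DMSO, 335 and 264 under TGF-β, then 352 and 2397 under TGF-β+2APB. Cd68, a macrophage protein and the most abundant of them, had 119 and 619.5 normalized counts in the TGF-β+2APB replicates, and the T cell marker Cd3e had at most 2 counts in any library.

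The wider machinery of the pathway was described with a list of 64 other genes, of which 62 were in the table and 52 had enough counts for the test. With TGF-β against DMSO 24 of the 52 were called (46.2%), 12 higher and 12 lower. TGF-β+2APB relative to DMSO changed 27 (51.9%), and 12 of these rose and 15 fell. The direct comparison called 10 (19.2%), 2 higher and 8 lower. These shares are near those of all tested genes, which were 41.5%, 52.8% and 17.5%. The median log2 fold changes were -0.08, -0.06 and -0.05 in the same order. Without Dll4, Dlk2 and Dtx1, which had a group below the minimum, 22, 25 and 9 of 49 genes were called. The counts changed when single libraries were left out. With TGF-β against DMSO the count was 14 without DMSO replicate 1 or without DMSO replicate 2, and 36 without TGF-β replicate 2, where all genes had 2753, 2895 and 7641 calls in place of 5548. In the direct comparison it was 3 without DMSO replicate 1, DMSO replicate 2 or TGF-β+2APB replicate 1, 5 without TGF-β+2APB replicate 2 and 25 without TGF-β replicate 2, where all genes had 858, 834, 986, 1260 and 5405 calls in place of 2334. With TGF-β+2APB against DMSO it was 42 without TGF-β replicate 2, where all genes had 9006 in place of 7044. The counts of the list and of all genes moved in the same direction in each of these fits.

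Among the other ligands, Dll4 rose under TGF-β, by 4.98 on the log2 scale (edgeR FDR 0.000688, SE 0.45), and stood 5.47 above DMSO with TGF-β+2APB (edgeR FDR 0.00031, SE 0.45). These values rest on 12 and 4 counts with DMSO, and were 5.92 and 6.40 without DMSO replicate 1. Dll3, Dlk1 and Dner were too low to test, with at most 8 counts in any library. The ligases mark ligands for uptake, a step that ligands need for signaling. Neurl1a had 246 and 248 normalized counts with DMSO, 1184 and 1071 under TGF-β, then 968 and 1036 under TGF-β+2APB. It rose by 2.19 on the log2 scale with TGF-β (edgeR FDR 0.000106, SE 0.11) and by 2.02 with TGF-β+2APB against DMSO (edgeR FDR 7.46e-05, SE 0.11). Neurl1b, its relative, had 1232 and 1299.5 normalized counts with DMSO, 561 and 492 under TGF-β, then 81.2 and 114 under TGF-β+2APB. It fell at each step without overlap of the groups, with log2 fold changes of -1.27 from DMSO to TGF-β (edgeR FDR 0.00298, SE 0.17) and -2.43 in the direct comparison (edgeR FDR 0.00326, SE 0.19). From DMSO to TGF-β+2APB Neurl1b fell by 3.69 on that scale (edgeR FDR 7.45e-05, SE 0.20). The Mind bomb ligases Mib1 and Mib2 complete this group of 4, of which 1 rose and 1 fell in each comparison with DMSO (2 of 4 called, against 41.5% of all tested genes with TGF-β and 52.8% with TGF-β+2APB).

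Of the 4 tested genes for receptor glycosylation, 3 rose and 1 fell with TGF-β, where 21.8% of all tested genes rose and 19.7% fell. Lfng encodes Lunatic fringe, a sugar transferase that changes which ligands a Notch receptor answers to. In normalized counts it stood at 566 and 508 with DMSO, 2556 and 2266 under TGF-β, then 2603 and 2717 under TGF-β+2APB. Both DMSO libraries were low and the 4 other libraries were alike, with log2 fold changes against DMSO of 2.17 with TGF-β (edgeR FDR 9.84e-05, SE 0.10) and 2.31 with TGF-β+2APB (edgeR FDR 5.1e-05, SE 0.10). Rfng, which encodes Radical fringe, fell by 0.67 on the log2 scale with TGF-β (edgeR FDR 0.00512, SE 0.11), and this call was lost without DMSO replicate 1 (edgeR FDR 0.0507, in a range of 2.31e-06 to 0.0507). The other rises with TGF-β, named after their values were seen, were Poglut1 by 0.66 and Pofut1 by 0.30 on the log2 scale, enzymes that add glucose and fucose to the receptor (edgeR FDR 0.00245 and 0.0387, the latter in a range of 0.00312 to 0.204). The call of Pofut1 was lost without DMSO replicate 1 (edgeR FDR 0.184), DMSO replicate 2 (edgeR FDR 0.204), TGF-β+2APB replicate 1 (edgeR FDR 0.0816) or TGF-β+2APB replicate 2 (edgeR FDR 0.0795), and also without a count minimum, with the replicate number as a block and with only the 4 libraries compared. Mfng, the remaining fringe gene, had at most 2 counts with DMSO and 20 and 40 counts with TGF-β+2APB, with a mean too low for the test.

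Receptor cleavage had 10 tested genes, of which 1 rose and 2 fell with TGF-β (30.0% called, against 41.5% of all tested genes). Furin encodes the protease that cuts Notch receptors on their way to the cell surface. With TGF-β it rose by 1.07 on the log2 scale (edgeR FDR 0.000491, SE 0.087). With TGF-β+2APB against DMSO the rise of Furin was 1.40 (edgeR FDR 0.000124, SE 0.088). The direct comparison gave 0.33 for Furin (edgeR FDR 0.0526, SE 0.086) and was not called. Adam10 and Adam17, the proteases of the first cut after ligand binding, were named after their values were seen, and they fell by 0.50 (edgeR FDR 0.0139) and 0.30 (edgeR FDR 0.0193) on the log2 scale with TGF-β. Without DMSO replicate 1 or DMSO replicate 2 the edgeR FDR of Adam10 was 0.0832 and 0.0920, in a range from 0.000348. For Adam17 it was 0.169 and 0.0951 without these libraries and 0.0732 and 0.0733 without TGF-β+2APB replicate 1 or replicate 2, in a range from 0.00039. The call of Adam17 was also lost with only the 4 libraries compared (edgeR FDR 0.0730). The log2 fold changes in the fits that lost the call were -0.52 and -0.49 for Adam10 and between -0.34 and -0.26 for Adam17, close to those of the main fit. Aph1b encodes a subunit of gamma-secretase, and its normalized counts were 837 and 814 with DMSO, 783 and 762 under TGF-β, then 432 and 456 under TGF-β+2APB. The DMSO and TGF-β libraries lay close together and both TGF-β+2APB libraries below them, with a direct log2 fold change of -0.80 (edgeR FDR 0.00733, SE 0.098).

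In the nuclear complex 3 of 9 tested genes rose and 3 fell with TGF-β, where 21.8% of all tested genes rose and 19.7% fell. Rbpj, the DNA-binding partner of the Notch intracellular domain, was named after its values were seen. It rose by a log2 fold change of 0.37 with TGF-β (edgeR FDR 0.00989, SE 0.071, in a range of 1.12e-06 to 0.118), a call lost without DMSO replicate 1 (edgeR FDR 0.118) or DMSO replicate 2 (edgeR FDR 0.0719). Rbpj was not called with TGF-β+2APB against DMSO, at 0.16 (edgeR FDR 0.108, in a range of 0.0226 to 0.455), or in the direct comparison, at -0.21 (edgeR FDR 0.108, in a range of 0.0313 to 0.420), and 4 and 2 of 13 alternatives called these. The coactivator gene Maml3 had 2714 and 2649 normalized counts with DMSO, 1589.5 and 1477.5 under TGF-β, then 1024 and 1130.5 under TGF-β+2APB. The groups did not overlap, and Maml3 fell by 0.81 with TGF-β (edgeR FDR 0.00129, SE 0.087) and by 1.32 with TGF-β+2APB against DMSO (edgeR FDR 0.000159, SE 0.089), both on the log2 scale. Of 10 corepressor genes 1 rose and 3 fell in each comparison with DMSO (40.0% called, against 41.5% of all tested genes with TGF-β and 52.8% with TGF-β+2APB). Tle2, a corepressor of the Groucho family that HES proteins recruit, had 3176 and 3215 normalized counts with DMSO, 2026 and 2131 under TGF-β, then 455 and 621.5 under TGF-β+2APB. It fell by 1.95 on the log2 scale in the direct comparison (edgeR FDR 0.00326, SE 0.15) and by 2.57 from DMSO to TGF-β+2APB (edgeR FDR 0.000113, SE 0.16).

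Receptor turnover and modulators had 12 tested genes, of which 2 rose and 2 fell with TGF-β, and 4 rose and 3 fell with TGF-β+2APB against DMSO (33.3% and 58.3% called, against 41.5% and 52.8% of all tested genes). Dtx1, a Deltex ubiquitin ligase that is itself a Notch target in lymphocytes, had 259 and 345 normalized counts with DMSO, 40.9 and 24.9 under TGF-β, then 1.98 and 7.89 under TGF-β+2APB. It was the wider gene with the largest fall in each comparison, with log2 fold changes of -3.19 with TGF-β (edgeR FDR 0.00506, SE 0.51), -2.71 in the direct comparison (edgeR FDR 0.0343, SE 0.60) and -5.90 with TGF-β+2APB against DMSO (edgeR FDR 0.00072, SE 0.62). The direct fall was lost without DMSO replicate 1 (edgeR FDR 0.0888), DMSO replicate 2 (edgeR FDR 0.0924), TGF-β replicate 1 (edgeR FDR 0.0582) or TGF-β+2APB replicate 1 (edgeR FDR 0.102) and with the replicate number as a block (edgeR FDR 0.0747), in a range of 0.000569 to 0.102. With 2 and 8 counts under TGF-β+2APB, the direct value was -2.08 without replicate 1 of that group and -3.98 without its replicate 2, and the value against DMSO was -5.24 and -7.15 in the same fits. Dtx4, of the same family, rose by 1.14 on the log2 scale with TGF-β (edgeR FDR 0.000645, SE 0.10). The 2 rises of the direct comparison were Numbl, a relative of the Notch inhibitor Numb, with 0.44 (edgeR FDR 0.0351, SE 0.098, in a range of 0.00181 to 0.275), and Dtx3 with 0.40 (edgeR FDR 0.0142, SE 0.064, in a range of 7.73e-08 to 0.142). Both were lost without either DMSO replicate or either TGF-β+2APB replicate and with only the 4 libraries compared, and Numbl also without a count minimum. Without DMSO replicate 1, DMSO replicate 2, TGF-β+2APB replicate 1 and TGF-β+2APB replicate 2 the edgeR FDR of Numbl was 0.103, 0.104, 0.275 and 0.0716, and that of Dtx3 was 0.0683, 0.0686, 0.142 and 0.107.

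Of the other HES and HEY genes on the list, only Hes6 could be tested. Hes6, a relative of Hes1 that opposes it, was named after its values were seen and had 4023 and 3888 normalized counts with DMSO, 3777 and 3412 under TGF-β, then 2890.5 and 2879 under TGF-β+2APB. It fell from DMSO to TGF-β+2APB by 0.46 on the log2 scale (edgeR FDR 0.00409, SE 0.076, in a range of 3.27e-06 to 0.0519, the highest without TGF-β+2APB replicate 2). Its fall in the direct comparison, by 0.32 (edgeR FDR 0.0414), was kept in 6 of 13 alternatives, in a range of 0.00435 to 0.224. The direct call was lost without DMSO replicate 1 (edgeR FDR 0.129), DMSO replicate 2 (edgeR FDR 0.130), TGF-β+2APB replicate 1 (edgeR FDR 0.205) or TGF-β+2APB replicate 2 (edgeR FDR 0.224), and also without a count minimum, with the replicate number as a block and with only the 4 libraries compared. Hes2, Hes3, Hes7, Hey2 and Heyl had at most 10 counts in any library, and Hes5 and Helt had no entry in the table.

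**Figure D3:**
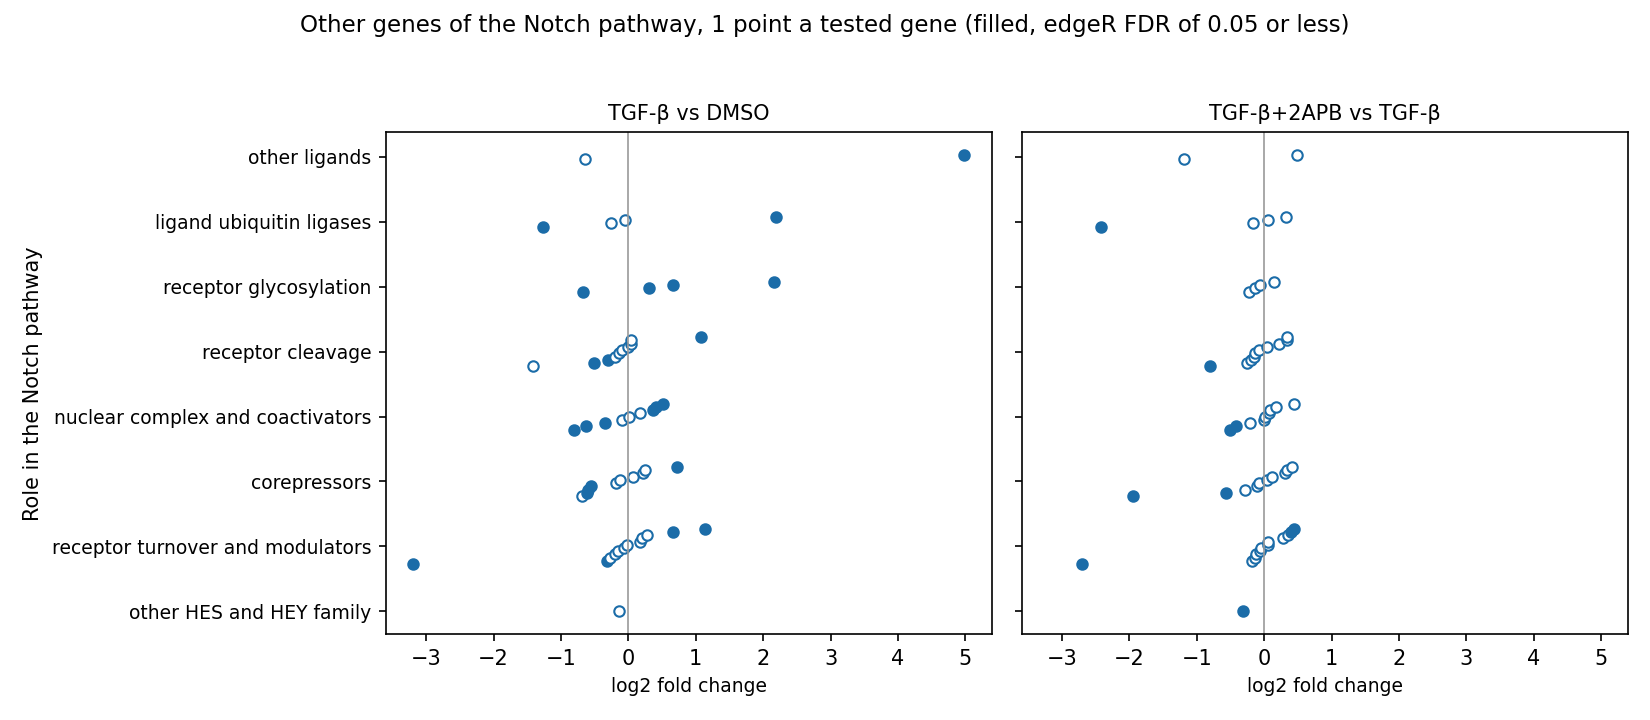
Log2 fold changes of the tested genes of the wider list, grouped by role, with TGF-β against DMSO and with TGF-β+2APB against TGF-β. Filled points have an edgeR FDR of 0.05 or less, and the points reach from -3.19 for Dtx1 to 4.98 for Dll4 with TGF-β, while 2 called points lie above 0 and 8 below it in the direct comparison.

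Epithelial markers were read in the same libraries to place the Notch genes in their cells. All 6 luminal markers were in the table, with summed normalized counts of 562785 and 528341 with DMSO, 824929 and 702624 under TGF-β, then 1374580 and 1308020 under TGF-β+2APB. Per kb the most abundant of them was Krt8 with DMSO, and Krt18, its partner keratin, under TGF-β and TGF-β+2APB. Krt8 and Krt18 rose in both comparisons with DMSO, while Krt19 and Cdh1 fell in both. Epcam had 128 and 163 normalized counts with DMSO, 50.6 and 58.1 under TGF-β, then 61.4 and 86.8 under TGF-β+2APB, so that both DMSO libraries were above the rest. Elf5, a factor of luminal progenitors, had at most 18 counts in any library. All 6 basal or myoepithelial markers were in the table, with summed normalized counts of 14485.8 and 14784 with DMSO, 4509 and 4306 under TGF-β, then 1168 and 1787.5 under TGF-β+2APB, mostly from Mylk, which encodes a myosin kinase. Other genes of this list went the other way. Acta2, which encodes smooth muscle actin, had 19.7 and 10.3 normalized counts with DMSO, 107 and 47.7 under TGF-β, then 91.1 and 86.8 under TGF-β+2APB, and Krt17 had 0 and 0, then 3.90 and 6.23, then 51.5 and 39.5 in the same groups. The defining basal genes Krt5, Krt14 and Trp63 were near 0, with at most 2, 4 and 6 counts in any library. The part of a shift in epithelial state in the levels of the Notch genes was not tested.

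The response to TGF-β was checked with 5 genes that are known to answer to it. With TGF-β against DMSO all 5 were called, against 41.5% of all tested genes. The log2 fold changes were 1.0 for Smad7, 0.86 for Cdh2, 0.77 for Skil, 0.75 for Fn1 and -1.44 for Id1. Skil was not called without DMSO replicate 1 or DMSO replicate 2, at an edgeR FDR of 0.160 and 0.142 in a range of 0.00234 to 0.160, nor with the replicate number as a block (edgeR FDR 0.0648). The normalized counts of Skil under TGF-β were 13384 and 20851, and its log2 fold change was 1.07 without TGF-β replicate 1 and 0.42 without TGF-β replicate 2, called in both fits. Of all tested genes 52.8% were called with TGF-β+2APB against DMSO. All 5 were called there in the same directions, at 1.39, 1.48, 1.62, 0.41 and -3.49. That of Fn1 was lost without TGF-β+2APB replicate 1 (edgeR FDR 0.0542) or TGF-β+2APB replicate 2 (edgeR FDR 0.0556), in a range of 3.09e-07 to 0.0556. In the direct comparison 4 of the 5 were called, 2 higher and 2 lower, against 17.5% of all tested genes. Id1 was farthest from 0 there, with -2.05, and was called in 13 of 13 alternatives. The remaining direct calls, Cdh2 with 0.63, Smad7 with 0.39 and Fn1 with -0.33, were lost with single libraries left out and with only the 4 libraries compared, and those of Smad7 and Fn1 also with the replicate number as a block. Without DMSO replicate 1, DMSO replicate 2 and TGF-β+2APB replicate 1 the edgeR FDR was 0.0584, 0.0590 and 0.0870 for Cdh2 (range 2.9e-06 to 0.0870), 0.0940, 0.0955 and 0.210 for Smad7 (range 2.09e-05 to 0.210) and 0.0964, 0.0941 and 0.232 for Fn1 (range 0.000704 to 0.232). Without TGF-β+2APB replicate 2 it was 0.0773 for Smad7 and 0.186 for Fn1. Skil, with a direct log2 fold change of 0.84 (edgeR FDR 0.0515, range 0.0019 to 0.197), was called without TGF-β replicate 1 (edgeR FDR 0.0370), without TGF-β replicate 2 (edgeR FDR 0.00373), by DESeq2 and with halved counts.

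For a gene from each role, the genes with the most similar pattern over the 6 libraries were found among 11458 genes that averaged 100 or more normalized counts. The measure was the root mean square difference of log2 normalized counts after each gene was set relative to its DMSO mean, so that 0 would be an identical pattern. For Notch1 the nearest were Sema3b at 0.0821, Pllp at 0.0843 and Amot at 0.0900. For Jag1 they were Nhsl1 at 0.0379, Cdr2 at 0.0426 and Lrrk1 at 0.0640. For Hes1 they were Nsun5 at 0.0201, Med17 at 0.0213 and Rnf34 at 0.0231. Nothing about shared function or control was read from these values.

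Promoter windows of 300 bases, from 250 before to 50 after a transcription start, were taken from RefSeq on build GRCm38.p6. There were 9 windows for 8 of the 10 genes, with 2 for Dll1, and Hes1 and Hey1 are named only. Motifs were searched on both strands. The RBPJ motif TGGGAA, present in 25.6% of all 32851 windows, was in 0 of the 9, and so was GTGGGAA, which contains it and was present in 6.38%. The SMAD motif CAGAC was in 6 of the 9 windows and in 49.6% of all windows. Of the HES and HEY motifs, CACGTG was in 1 of the 9, that of Nrarp, and in 7.15% of all windows, and CACNAG was in 5 of the 9 and in 42.5% of all. The AP-1 motif TGANTCA was in 2 of the 9, those of Notch4 and of 1 start of Dll1, and in 7.81% of all windows. These shares are a description of letters, and a match is not a binding site.

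The windows of Notch4, Dll1 and Jag1 are printed because these genes had the 3 largest called rises of the 10 with TGF-β, and capitals mark CAGAC and TGANTCA on either strand. The Notch4 window is chr17:34564045-34564344 on the plus strand, the Dll1 window with an AP-1 match is chr17:15376883-15377182 on the minus strand and the Jag1 window is chr2:137116471-137116770 on the minus strand.
Notch4: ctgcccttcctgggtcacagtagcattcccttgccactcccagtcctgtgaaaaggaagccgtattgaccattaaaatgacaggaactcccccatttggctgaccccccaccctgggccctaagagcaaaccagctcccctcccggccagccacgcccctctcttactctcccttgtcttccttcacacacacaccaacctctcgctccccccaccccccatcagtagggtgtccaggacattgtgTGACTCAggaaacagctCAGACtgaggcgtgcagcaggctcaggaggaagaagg
Dll1: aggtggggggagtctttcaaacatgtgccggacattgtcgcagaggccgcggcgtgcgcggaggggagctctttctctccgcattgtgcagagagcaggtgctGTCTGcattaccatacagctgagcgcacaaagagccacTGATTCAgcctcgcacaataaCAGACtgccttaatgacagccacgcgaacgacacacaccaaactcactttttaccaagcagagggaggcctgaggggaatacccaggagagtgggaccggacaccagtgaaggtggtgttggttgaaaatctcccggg
Jag1: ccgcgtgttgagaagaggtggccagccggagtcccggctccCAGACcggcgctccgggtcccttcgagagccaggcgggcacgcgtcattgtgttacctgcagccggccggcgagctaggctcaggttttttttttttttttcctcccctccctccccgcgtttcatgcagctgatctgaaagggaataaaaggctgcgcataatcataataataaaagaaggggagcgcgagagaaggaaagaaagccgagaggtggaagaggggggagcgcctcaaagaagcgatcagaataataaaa
In the Notch4 window TGANTCA begins at position -4 relative to the start and CAGAC at 13. In the Dll1 window TGANTCA begins at -109, and CAGAC at -147 and -88, the first of these on the opposite strand. In the Jag1 window CAGAC begins at -209 and TGANTCA is absent from these 300 bases.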

How the data were processed

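RNA of 6 libraries was selected with oligo-dT and sequenced as single-end reads. The authors aligned the reads with TopHat2 2.0.13 and used featureCounts to obtain the deposited raw counts per gene, which carry no scaling. The genome is given as human hg19 in the methods and as mm10 in the submitters' notes, and the symbols are those of mouse. Every value is even, so the smallest count above 0 is 2, and 25 names had been changed to dates. Entries with such names were left out of the search for similar patterns. No entry was removed from the fit for its name, so any of them above the count minimum stayed among the tested genes. The tools were R 4.3.3, edgeR 4.0.16 and limma 3.58.1. Entries that averaged 20 or more normalized counts were kept (13353 of 18512), scaled by TMM and fitted in 1 quasi-likelihood model of 3 groups without covariates. Pairs of groups were compared by the quasi-likelihood F-test with Benjamini-Hochberg FDR at 0.05. The SE was obtained by dividing a log2 fold change by the square root of its F. Exon lengths and positions came from GENCODE vM21. Python 3.11.15, pandas 2.3.3 and matplotlib 3.10.9 made the tables and plots.

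The 10 members, the wider list and the marker lists were chosen with earlier results of these data known. Named genes are the 10 members, 5 genes of the TGF-β check and, from the wider list, the 4 largest rises and 4 largest falls by log2 fold change among called genes of each comparison. Others were named after their values were seen. Of the genes planned for the TGF-β check, 1 is not reported here. The 3 nearest patterns were taken for Notch1, Jag1 and Hes1. The alternatives were DESeq2 1.42.0, RLE or library size scaling, no minimum count, the replicate number as a block, only the 4 libraries compared, an FDR of 0.01, and each library left out in turn. Halved counts and a block with the TGF-β+2APB numbers exchanged were added after the data had been seen. Proteins were not analysed here.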

Additional observations from a re-analysis of the deposited data

How the results depend on the processing

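Of 386 values that set a log2 fold change of 1 of the 10 genes against an alternative, 348 kept their direction and their side of the threshold, 21 lost the call, 11 gained one and 6 changed sign. For the other genes named with a test, 674 of 753 such values kept both, 68 lost the call, 11 gained one and 0 changed sign. Notch3 had no value without TGF-β+2APB replicate 1, nor with TGF-β against DMSO in the fit of only those 4 libraries, and Dtx1 had none in the direct fit of only 4 libraries, because their means then fell below the minimum. Leaving a library out leaves 1 library in its group, which is assumed to vary like the other groups. Every sign change came from leaving out a library, and was of a log2 fold change that was not called. When single libraries were omitted, the difference between TGF-β+2APB and TGF-β ran from -0.044 to 0.24 for Notch1, at -0.005 without TGF-β replicate 2, from -0.18 to 0.043 for Notch4, and from -0.17 to 0.76 for Nrarp, at -0.066 without TGF-β replicate 2. The change of Hey1 from DMSO to TGF-β+2APB ran from -0.78 to 0.10.

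Among the 10 genes, DESeq2 called 8 with TGF-β against DMSO, where it called 6292 of all genes and edgeR 5548. In the direct comparison the replicate block and the fit of only the 4 libraries compared called 2 each, an FDR of 0.01 called 1, and leaving out libraries gave 1 to 4. Of the wider list, leaving out libraries gave 14 to 36 calls with TGF-β against DMSO and 21 to 42 with TGF-β+2APB against DMSO. In the direct comparison DESeq2 called 16 of it, the fit of only the 4 libraries and an FDR of 0.01 called 3 each, and leaving out libraries gave 3 to 25. Over all genes, an FDR of 0.01 called 3369 with TGF-β against DMSO and leaving out libraries 2753 to 7641. In the direct comparison DESeq2 called 3646, the replicate block 1342, the fit of only the 4 libraries 860, an FDR of 0.01 called 601, and leaving out libraries gave 834 to 5405. With TGF-β+2APB against DMSO leaving out libraries gave 4355 to 9006. A stricter FDR gives fewer calls by construction, and for the other shifts the cause was not tested.

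The replicate numbers do not show which samples belong together. With the replicate block 6, 2 and 9 of the 10 genes were called in the comparisons of TGF-β with DMSO, TGF-β+2APB with TGF-β and TGF-β+2APB with DMSO, and with the block after the TGF-β+2APB numbers were exchanged, 6, 4 and 9. Halved counts called 5, 4 and 9. Over all genes the replicate block called 4737, 1342 and 6358, the exchanged block 5706, 2465 and 7232, and halved counts 5615, 2406 and 7087, where the main fit called 5548, 2334 and 7044.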
